A study of Mus musculus with 36 samples.

Results

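Genes of B lymphocyte development, 9 in number, were followed in RNA from mouse knee cartilage: Cd79a, Cd79b, Vpreb1, Vpreb3, Igll1, Rag1, Ebf1, Pax5 and Blnk. They were chosen by name as a measure of marrow lymphoid cells in the dissected tissue, and each of the 9 had 1 row among the 30048 transcripts counted, which carry 23071 gene symbols. Male C57BL/6J mice were operated at 12 weeks of age by destabilization of the medial meniscus (DMM) of the right knee, a surgical model of post-traumatic osteoarthritis. The left knee, which had no operation of any kind, was the control, so that the effect of opening a joint cannot be told apart from that of the destabilization. Tibial and femoral cartilage was collected 4 or 12 weeks after surgery, and the tissue of 3 knees was pooled for each library. There were 3 control and 3 DMM RNA libraries for each week, 12 RNA libraries in all. DNA of other mice gave 3 control and 3 DMM libraries for each week by reduced representation oxidative bisulfite sequencing, which reads 5-methylcytosine (5mC), each with a partner made without oxidation. The control and DMM knees belonged to the same mice, although no source says whether pools of the same number shared animals. The mice of 4 and 12 weeks were different animals, so week cannot be told apart from the animals or any batch of preparation.

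B lymphocytes are made in the bone marrow, in steps that each use their own genes. The transcription factors Ebf1 and Pax5 commit a precursor to the lineage, Rag1 cuts the DNA of the immunoglobulin genes so that they can be joined, and the proteins of Vpreb1 and Igll1 form the surrogate light chain of the pre-B cell receptor. Cd79a and Cd79b carry the signal of that receptor and of the mature one, Blnk links them to the enzymes downstream, and Vpreb3 is a related chain of B precursors. Chondrocytes are not known for this programme, whereas marrow lies under the joint cartilage in the subchondral bone. Some of these genes also serve other cells: Ebf1 is known in adipocytes and marrow stroma, Rag1 in T cell precursors and Blnk in macrophages.

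Each library held 27706547 to 62737656 counted reads, which makes counting error small for all but Pax5, Rag1 and Vpreb1, with 66 reads in its lowest library. The study's methods describe low RNA input and amplification, so read counts can understate the error of sampling RNA molecules. Levels are given as CPM, counts scaled to a common library size and adjusted by the trimmed mean of M values over the 12 libraries. Cartilage genes were abundant throughout, with the 10 listed chondrocyte genes (Prg4 and Comp had the highest levels) adding up to 7295 to 23661 CPM, and none of the 10 was at 0 in any library. Marrow genes were also present in every library: 14 neutrophil genes added up to 10320 to 48684 CPM and 13 erythroid genes to 7484 to 21940 CPM. The erythroid genes Hba-a1 and Hba-a2 had the same log2 fold change (-0.15) and SE between limbs at 4 weeks and are not separate measurements. Both enter each erythroid count, sum and ratio below. In bulk RNA, fewer cells of a type and less RNA per cell cannot be told apart. The p-values below measure the spread between pooled libraries.

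Promoters of 8 of the 9 genes were found in the RefSeq table of mouse build GRCm38.p6, which had no entry for Cd79b. The 250 bases before the start of the gene held the letters CAGGTG, on either strand, in 5 of these 8 genes, against 17.2% of all 32851 promoters of the same length. CAGGTG is the E-box sequence for which the lineage regulator Tcf3 is known. The 5 promoters are shown because they share it, with CAGGTG or its reverse complement CACCTG in capitals, and in Igll1 also the CG whose methylation was measured. The match is a description of the letters and not a binding site seen in these data.
Cd79a, chr7:24897247-24897496, plus strand: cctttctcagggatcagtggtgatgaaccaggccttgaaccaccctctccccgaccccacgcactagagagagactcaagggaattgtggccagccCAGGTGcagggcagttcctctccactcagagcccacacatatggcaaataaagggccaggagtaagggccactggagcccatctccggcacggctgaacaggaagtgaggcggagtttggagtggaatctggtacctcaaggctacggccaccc
Vpreb1, chr16:16869256-16869505, minus strand: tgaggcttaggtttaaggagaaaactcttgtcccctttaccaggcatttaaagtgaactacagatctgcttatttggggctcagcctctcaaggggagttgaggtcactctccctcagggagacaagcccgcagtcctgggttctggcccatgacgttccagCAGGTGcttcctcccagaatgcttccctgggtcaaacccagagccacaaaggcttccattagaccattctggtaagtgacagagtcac
Igll1, chr16:16863986-16864235, minus strand: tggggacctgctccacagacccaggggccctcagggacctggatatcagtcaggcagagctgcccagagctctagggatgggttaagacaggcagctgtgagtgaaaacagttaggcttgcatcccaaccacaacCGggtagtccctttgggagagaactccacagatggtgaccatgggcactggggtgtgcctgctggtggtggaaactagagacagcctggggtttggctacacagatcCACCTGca
Rag1, chr2:101649533-101649782, minus strand: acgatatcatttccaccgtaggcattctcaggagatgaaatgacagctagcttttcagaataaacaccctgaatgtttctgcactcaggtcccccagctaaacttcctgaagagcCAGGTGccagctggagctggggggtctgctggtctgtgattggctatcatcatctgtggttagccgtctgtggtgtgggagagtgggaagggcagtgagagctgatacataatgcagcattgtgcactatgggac
Blnk, chr19:40994222-40994471, minus strand: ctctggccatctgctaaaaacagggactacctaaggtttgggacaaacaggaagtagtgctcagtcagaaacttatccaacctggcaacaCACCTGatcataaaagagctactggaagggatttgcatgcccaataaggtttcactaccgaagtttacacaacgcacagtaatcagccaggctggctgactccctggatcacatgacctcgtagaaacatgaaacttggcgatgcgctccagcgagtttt
Counted from the start of the gene, the motif began at -154 in Cd79a, -88 in Vpreb1, -8 in Igll1, -135 in Rag1 and -160 in Blnk. The windows of Vpreb3, Ebf1 and Pax5 held none. Igll1 and Vpreb1 lie 4415 bases apart on the minus strand of chromosome 16, at 16860671 to 16863985 and 16868401 to 16869255.

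All 9 genes were counted in each of the 12 libraries, from as few as 8 reads for Pax5 to as many as 4967 for Cd79b. Per kilobase of exon, the mean level over the 12 libraries was highest for both receptor chains, Cd79b with 47.8 CPM per kb and Cd79a with 46.4. Vpreb3 followed with 34.1, Igll1 with 16.9, Blnk with 14.3, Vpreb1 with 6.91, Ebf1 with 5.92, Rag1 with 0.300 and Pax5 with 0.0863 CPM per kb. The order of neighbours was not the same in each group: Ebf1, with 9.67 CPM per kb, was above Vpreb1, with 6.92, in DMM at 4 weeks, and Cd79a was above Cd79b in the other 3 groups.

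The receptor chain Cd79a (chromosome 7, 24897497 to 24901858, 5 exons) had 30.8, 32.7 and 78.7 CPM in the control libraries of 4 weeks and 38.9, 58.1 and 32.0 CPM in the DMM libraries, replicates 1 to 3 in that order here and below. At 12 weeks it had 47.2, 68.1 and 54.8 CPM in control and 29.996, 33.9 and 53.2 CPM in DMM. Control replicate 3 of 4 weeks stood above the other 11 libraries, and the limbs overlapped in both weeks. Its partner Cd79b had 40.6, 41.1 and 92.4 CPM in control and 47.1, 85.4 and 59.4 CPM in DMM at 4 weeks. At 12 weeks Cd79b had 60.3, 75.7 and 65.9 CPM in control and 39.6, 37.7 and 61.3 CPM in DMM. The same control library of 4 weeks was the highest, and DMM replicate 3 of 12 weeks lay just inside the control range. Blnk, the adaptor that joins the receptor to its enzymes, had 17.7, 20.6 and 39.4 CPM in control and 22.9, 31.6 and 28.0 CPM in DMM at 4 weeks. It had 29.1, 29.2 and 27.04 CPM in control and 15.6, 17.4 and 27.2 CPM in DMM at 12 weeks. Replicates 1 and 2 of DMM at 12 weeks were thus the lowest of all libraries for Blnk, and replicate 3 lay inside the control range.

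Of the surrogate light chain, Igll1 had 8.92, 16.0 and 23.3 CPM in control and 13.3, 16.6 and 15.3 CPM in DMM at 4 weeks. It had 16.0, 12.5 and 17.9 CPM in control and 4.996, 13.0 and 18.0 CPM in DMM at 12 weeks. DMM replicate 1 of 12 weeks was the lowest library and the limbs overlapped in both weeks. Vpreb1, the other chain, had 3.05, 5.88 and 9.45 CPM in control and 5.42, 5.89 and 4.63 CPM in DMM at 4 weeks. At 12 weeks Vpreb1 had 5.90, 5.20 and 4.65 CPM in control and 1.39, 5.66 and 6.55 CPM in DMM. The extremes were the same libraries as for Igll1. Vpreb2 is a near-identical copy of Vpreb1 with 2.03 to 11.1 counts for each 100 of Vpreb1, and how the counting divided reads between them is uncertain. Vpreb3 had 12.3, 10.7 and 35.5 CPM in control and 15.5, 31.5 and 21.7 CPM in DMM at 4 weeks, and 24.7, 30.9 and 21.1 CPM in control against 9.99, 17.2 and 24.6 CPM in DMM at 12 weeks. Its limbs overlapped in both weeks.

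Rag1, the recombinase, had 0.59, 1.08 and 4.43 CPM in control and 1.40, 2.65 and 1.43 CPM in DMM at 4 weeks, from 25 to 238 reads. It had 2.58, 3.46 and 1.90 CPM in control and 0.76, 2.14 and 1.61 CPM in DMM at 12 weeks. The control libraries of 4 weeks held both the lowest and the highest value, a range of 7.56-fold. Pax5, the factor that keeps B cells in their lineage, was the scarcest, with 0.61, 0.44 and 1.12 CPM in control and 0.49, 0.70 and 0.24 CPM in DMM at 4 weeks. It had 0.90, 1.001 and 1.005 CPM in control and 0.63, 0.57 and 0.80 CPM in DMM at 12 weeks. At 12 weeks every DMM library was below every control library for Pax5, on 15 to 62 reads each.

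Ebf1, the early lineage factor (chromosome 11, 44618100 to 45008096, 16 exons), was distributed in another way. It had 32.0, 35.1 and 26.6 CPM in control and 51.9, 40.4 and 58.7 CPM in DMM at 4 weeks. It had 23.6, 16.4 and 22.3 CPM in control and 24.3, 19.7 and 18.1 CPM in DMM at 12 weeks. Every DMM library of 4 weeks was above every other library, and all libraries of 12 weeks were below those of 4 weeks. Control replicate 3 of 4 weeks, the highest library for the other 8 genes, was only in the middle for Ebf1.

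**Figure D1:**
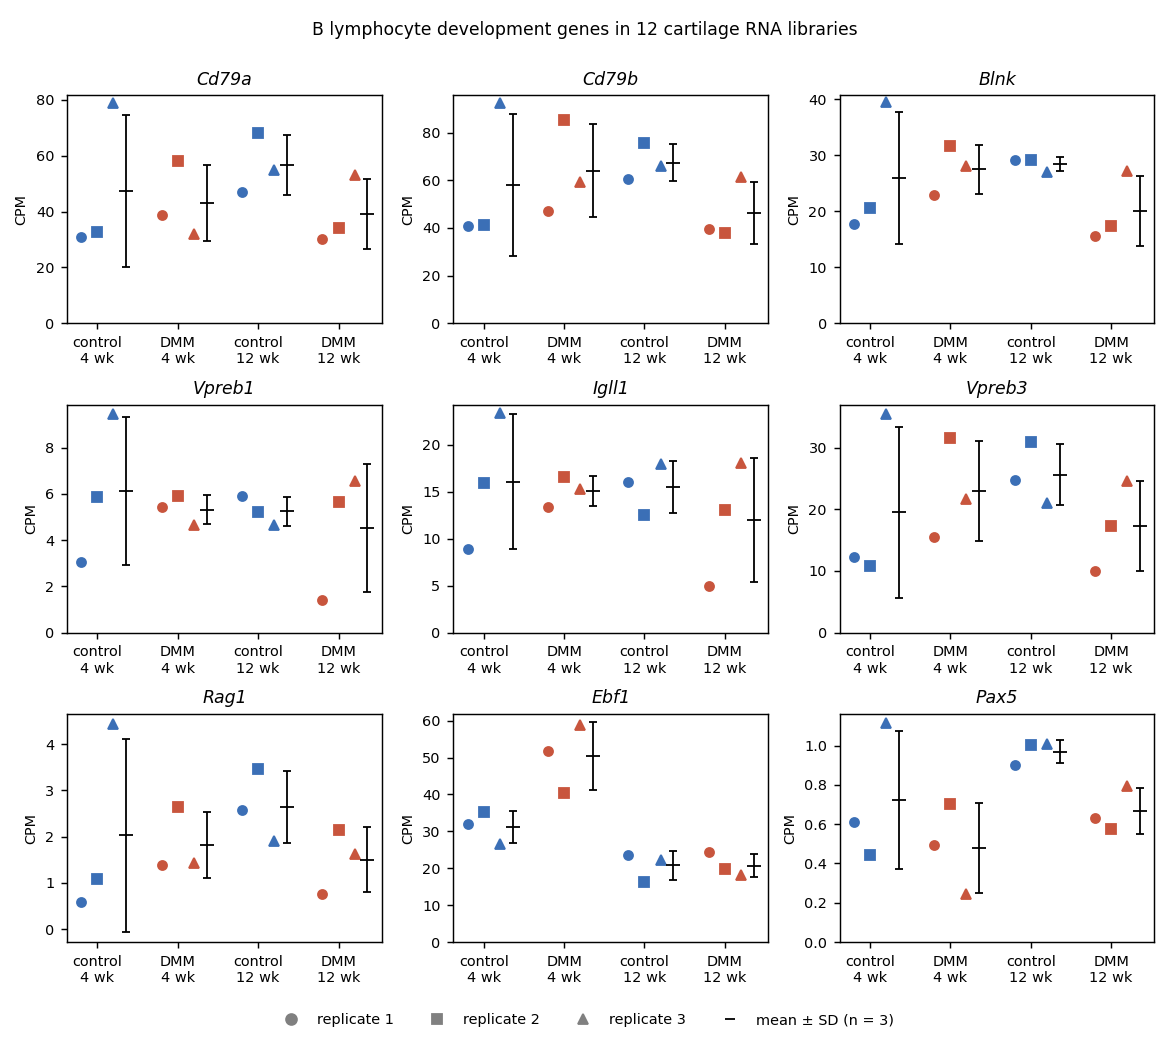
Levels of the 9 genes in CPM (vertical axes, linear, each gene on its own scale) in the 12 RNA libraries, by limb and week. Points are libraries and bars are the mean and SD of 3 libraries. Control replicate 3 of 4 weeks is the highest point in 8 panels, and in the Ebf1 panel the 3 DMM libraries of 4 weeks, at 40.4 to 58.7 CPM, are above all others.

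DMM and control limbs were first compared at 4 weeks, the early stage of the model. None of the 9 genes was called by edgeR's quasi-likelihood test (adjusted p under 0.05), where 0.0757% of 21140 transcripts were, and none by DESeq2, where 3.44% were. In DMM 4 genes were higher and 5 lower in DMM, and 52.5% of transcripts were lower; the median log2 fold change was -0.10 against -0.03 over all transcripts. Ebf1 had the largest difference, a log2 fold change of 0.69 (SE 0.20, edgeR adjusted p = 0.271, DESeq2 adjusted p = 0.0927). It was the only one of the 9 with an unadjusted p under 0.05, which 13.7% of transcripts had. It was also the only one whose limbs did not overlap, with DMM higher, as in 10.8% of transcripts. The other 8 had log2 fold changes of -0.58 (Pax5, SE 0.52) to 0.21 (Vpreb3, SE 0.48), with edgeR adjusted p from 0.588 upward. Genes of other cells also differed at 4 weeks. All 7 macrophage genes were higher in DMM (median log2 fold change 0.67, none called by edgeR or DESeq2), with summed levels of 1925 to 4456 CPM in control and 2908 to 6230 CPM in DMM. All 8 skeletal muscle genes were lower without overlap (median -2.41, 1 called by edgeR, Myh1, and 6 by DESeq2), with 4420 to 15828 CPM in control and 419 to 2583 CPM in DMM. Of the 10 chondrocyte genes 7 were lower (median -0.62, none called by edgeR and Cnmd by DESeq2). Higher were also 5 of 7 adipocyte genes (median 0.22), 6 of 8 marrow stroma genes (median 0.21) and 6 of 8 osteoblast and osteocyte genes (median 0.33). Of the 6 endothelial genes 2 were higher, without overlap, and 4 lower. EdgeR called none of these and DESeq2 1, an osteoblast gene. The part of these cells in the Ebf1 difference was not tested.

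The direction at 4 weeks turned on single libraries. In DMM 8 of the 9 genes were lower without control replicate 1 (median -0.38), without control replicate 2 (median -0.11) and without DMM replicate 2 (median -0.17). Without control replicate 3, 8 of the 9 genes were higher in DMM, with a median log2 fold change of 0.51, and edgeR called none of the 9. All 4 with an unadjusted edgeR p under 0.05 were higher. In that fit 20.1% of transcripts had such a p, and 7.34% had it with a higher level. The summed CPM of the 8 genes other than Ebf1 was 115, 129 and 284 in control and 145, 233 and 163 in DMM. Control replicate 3 was the highest of its group for the 13 erythroid genes, at 21940 CPM against 7789 and 10161, and for the 14 neutrophil genes, at 29668 CPM against 10320 and 17274. Whether its share of marrow set these differences was not tested.

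At 12 weeks, with established disease in the model, 8 of the 9 genes were below control in DMM. The median log2 fold change of the 9 was -0.52 against 0.01 over all 21010 transcripts tested, of which 48.5% were lower. None was called by edgeR, where 0.00476% of transcripts (1 transcript) was, and none by DESeq2, where 4.02% were. An unadjusted edgeR p under 0.05 with a lower level, found for 7.39% of transcripts, was found for 3 of the 9. These were Cd79b with a log2 fold change of -0.54 (SE 0.20, edgeR adjusted p = 0.274), Cd79a with -0.53 (SE 0.23, edgeR adjusted p = 0.301) and Blnk with -0.50 (SE 0.21, edgeR adjusted p = 0.292). Rag1 had the largest difference, -0.83, with an SE of 0.41 (edgeR adjusted p = 0.339). Vpreb3 had -0.57 (SE 0.30), Pax5 -0.52 (SE 0.32), Igll1 -0.37 (SE 0.40) and Vpreb1 -0.22 (SE 0.48). Pax5 alone had limbs that did not overlap, as 8.84% of transcripts had with DMM lower. Ebf1 was at 0.01 (SE 0.19, edgeR adjusted p = 0.991), and its sign changed with the scaling.

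In each fit run at 12 weeks, 8 or 9 of the 9 genes were lower in DMM. The median ranged from -0.36 without DMM replicate 1 to -0.79 without DMM replicate 3. The number with an unadjusted p under 0.05 was less steady, and so was the share of all transcripts that were lower with such a p. It was 0 without DMM replicate 1 (5.55% of transcripts), 0 without control replicate 2 (12.7%), 1 without DMM replicate 2 (2.74%) and 4 without DMM replicate 3 (11.6%). It was 4 with DESeq2 (7.79%) and 0 when all 12 libraries shared 1 estimate of the spread (4.03%).

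**Figure D2:**
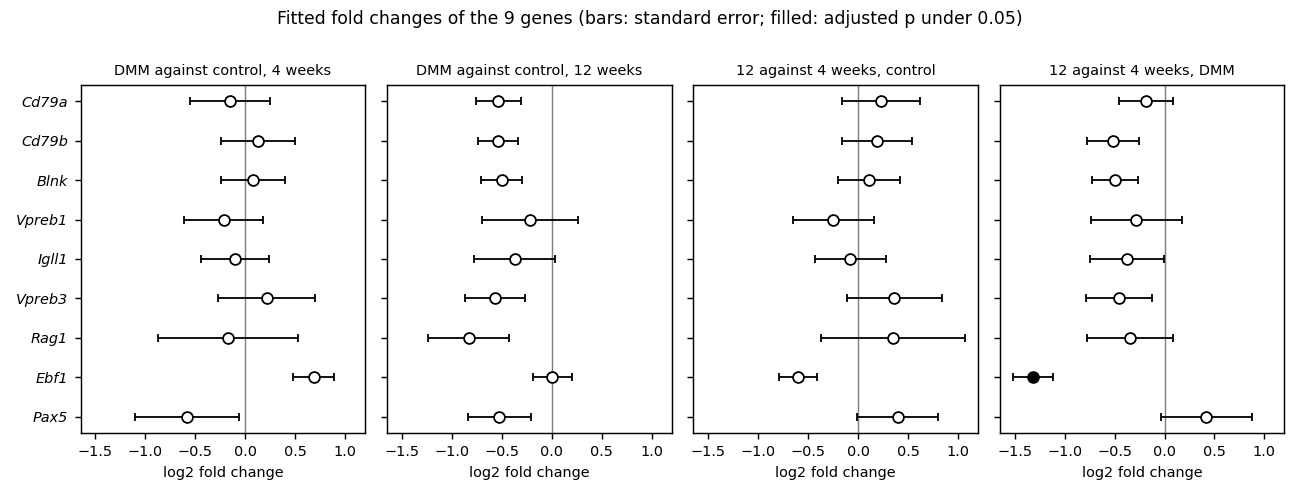
Log2 fold change (horizontal axis) of the 9 genes, with bars of 1 SE from edgeR. The panels are DMM against control at 4 and at 12 weeks, and 12 against 4 weeks in control and in DMM. Filled points have an edgeR adjusted p under 0.05, which only Ebf1 between weeks in DMM had. Between limbs, 8 of the 9 points are below 0 at 12 weeks, and at 4 weeks Ebf1, at 0.69, is the farthest above 0.

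Most other listed genes of B cells were lower in DMM at 12 weeks as well. All 18 listed genes of the B cell surface and its receptor signalling were lower in DMM, with a median log2 fold change of -0.57, and 10 had an unadjusted p under 0.05, shares to be read against the 48.5% and 7.39% of all transcripts. EdgeR called none of the 18, and DESeq2, which called 4.02% of all transcripts, called 5, Lyn, Syk, Pik3ap1, Bank1 and Cd38. With replicates as a block edgeR called 4 of the 18 lower, where it called 734 of 21010 transcripts. The summed level of the 18 was 1028 to 1201 CPM in control and 668 to 943 CPM in DMM, without overlap. Of 17 regulators of early lymphoid cells, 14 were lower, with a median of -0.60, and edgeR called none of them and DESeq2 1, Ikzf1. Of the 5 plasma cell genes tested 3 were lower and 2 higher, Sdc1 at 0.41 and Xbp1 at 0.15, and neither tool called any. Among the regulators Erg, at 0.65, was higher without overlap, and Lef1 (0.24) and Foxo1 (0.84) overlapped.

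Genes of other blood and immune cells were lower as well, and where these cells lay was not tested. All 13 erythroid genes were lower, Hba-a1 and Hba-a2 not being separate measurements, with a median log2 fold change of -0.38. Their summed levels were 11793 to 16369 CPM in control and 8581 to 14579 CPM in DMM. All 14 neutrophil genes were lower, with a median of -0.54 and 28962 to 48684 CPM against 23393 to 37574 CPM. Of the T and NK cell genes 11 of 13 were lower (median -0.45), and of the macrophage genes 7 of 7 (median -0.43). Not every list fell: of the 6 osteoclast genes 3 were higher and 3 lower (median -0.0072). The 10 chondrocyte genes were all higher in DMM, unlike at 4 weeks, with a median of 0.52 and summed levels of 7295 to 20975 CPM in control and 14990 to 23661 CPM in DMM. No gene of these lists was at 0 in any library of 12 weeks. EdgeR called none of these genes, and DESeq2 called Slc4a1 and Epb42 of the erythroid list and Cd4 and Gzma of the T and NK list lower, and Thy1 of the T and NK list and Comp of the chondrocyte list higher. Lower genes were not confined to blood lists: 7 of 8 skeletal muscle genes (median -0.38) and 6 of 8 marrow stroma genes (median -0.34) were lower. So were 5 of 6 endothelial genes (median -0.29) and 4 of 6 adipocyte genes tested (median -0.063), while 5 of 8 osteoblast and osteocyte genes were higher (median 0.19). EdgeR called none of these, and DESeq2 1 marrow stroma gene lower and 2 osteoblast and osteocyte genes higher. The part of tissue makeup in the differences of the 9 genes was not tested.

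Ratios within a library were taken for 6 of the 9 genes, Cd79a, Cd79b, Vpreb1, Igll1, Vpreb3 and Rag1. For each 100 counts of Cd79a and Cd79b together, a library had 9.18 to 29.6 counts of the surrogate light chain genes Vpreb1 and Igll1, with a median of 19.8. The extremes were a DMM library of 12 weeks and a control library of 4 weeks. For the same 100 counts there were 14.4 to 24.03 counts of Vpreb3 and 0.82 to 2.99 counts of Rag1. Vpreb1 had 25.9 to 43.5 counts for each 100 of Igll1. The limbs overlapped in both weeks for each of these 4 ratios. The log2 ratio of Cd79a and Cd79b to the summed erythroid genes was -7.08 to -6.56 in control and -7.13 to -6.90 in DMM at 12 weeks, which also overlapped. Against the neutrophil genes it was -7.87 to -7.17 in the 6 libraries of 4 weeks and -8.82 to -7.65 in the 6 of 12 weeks.

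The change of the DMM effect between weeks was tested as the interaction of limb and week over all 12 libraries. EdgeR called 0 of 21618 transcripts (0%), with 12.3% at an unadjusted p under 0.05, and DESeq2 called 16 (0.0613%), none of them among the 9 genes. Of the 9, 8 had a lower DMM effect at 12 than at 4 weeks, where 48.1% of transcripts did, with a median difference of -0.59 on the log2 scale. Ebf1 alone had an unadjusted p under 0.05, with a difference of -0.69 (SE 0.28, edgeR adjusted p = 0.405). Without control replicate 3 of 4 weeks all 9 were below 0, the median was -0.99 and 5 had an unadjusted p under 0.05, with none called. In that fit 49.7% of transcripts were below 0, 24.9% had such a p and 11.2% had it with a value below 0. The effect was smaller in other fits, with medians of -0.22 without control replicate 1 of 4 weeks, -0.28 without DMM replicate 2 of 4 weeks and -0.35 without DMM replicate 1 of 12 weeks. No gene had an unadjusted p under 0.05 without DMM replicate 3 of 4 weeks, or without control replicate 1 or 3 or DMM replicate 2 or 3 of 12 weeks.

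The weeks were also compared within each limb. In DMM, Ebf1 fell by 1.32 on the log2 scale from 4 to 12 weeks (SE 0.20, edgeR adjusted p = 0.00473, DESeq2 adjusted p = 4.4e-07), and it was the 1 gene of the 9 called, where edgeR called 23.8% of 20951 transcripts and DESeq2 29.0%. It remained called in every fit that left out a library. The other 8 had log2 fold changes of -0.51 to 0.42 and were not called. In control, Ebf1 had a log2 fold change of -0.60 (SE 0.19, edgeR adjusted p = 0.154, DESeq2 adjusted p = 0.0537), with no overlap between the weeks, as in 10.9% of transcripts. The other 8 had -0.25 to 0.40 in control. EdgeR called 0 of 21222 transcripts there (0%), with 21.2% at an unadjusted p under 0.05, and DESeq2 called 11.7%, none of them among the 9. Both comparisons share no libraries.

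The outcome in control also turned on single libraries of 4 weeks. Without replicate 1, 7 of the 9 genes were lower at 12 weeks (median -0.10), and without replicate 2, 5 were (median -0.0082), with none called. Without replicate 3, edgeR called 5 of the 9 genes higher at 12 weeks, where it called 18.3% of 21502 transcripts. These were Rag1 with a log2 fold change of 1.65 (edgeR adjusted p = 0.0436), Vpreb3 with 1.14 (0.0215), Cd79a with 0.83 (0.0345), Cd79b with 0.71 (0.0291) and Blnk with 0.57 (0.0474). With all libraries these 5 had 0 calls. Ebf1 went the opposite way, at -0.70 without that library (edgeR adjusted p = 0.0543).

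Among other genes of B lymphopoiesis, calls between weeks in the DMM limbs are read against the 23.8% of all transcripts called. Of the 18 surface and signalling genes 2 were called lower at 12 weeks, Ms4a1 with a log2 fold change of -1.07 and Bank1 with -0.95. Of the 17 early regulators, Tcf3 (1.08), Lef1 (1.04), Spib (1.21) and Irf8 (0.95) were called higher, and Rag2, the partner of Rag1, lower with -1.02. Of the 8 marrow stroma genes Lepr, a receptor that marks the stromal cells, fell by 1.52 and Kitl, a growth factor for precursors, fell by 0.95. Of the 7 adipocyte genes 5 were called lower, with Cfd at -1.89, Cidec at -1.37 and Fabp4 at -1.18. Macrophage genes were called lower in 5 of 7 (median -1.30, Mrc1 at -1.79) and endothelial genes in 3 of 6 (median -0.73, Pecam1 at -0.96). Other lists had calls in the opposite direction: neutrophil genes were called higher in 3 of 14 (Mpo, Ltf and Cd177, list median 0.40), erythroid genes in 2 of 13 (Epor and Klf1, list median -0.11) and chondrocyte genes in 3 of 10 (Acan, Sox9 and Prg4, list median 0.42). Of the 8 osteoblast and osteocyte genes 2 were called higher and 2 lower.

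Across the 12 libraries, 8 of the 9 genes varied together. All 28 pairs among them had a Pearson r of log2 CPM above 0, with a median of 0.73 and a range of 0.22 to 0.95. Against the mean of the other 7, r was 0.92 for Cd79a and Vpreb3, 0.91 for Blnk, 0.89 for Rag1, 0.88 for Cd79b, 0.76 for Igll1, 0.74 for Vpreb1 and 0.51 for Pax5. The closest pairs were Cd79b with Blnk (0.95) and the neighbours Vpreb1 and Igll1 (0.95). All genes of a library share its makeup and depth, so these values describe the 12 libraries. The median over pairs was 0.65 without control replicate 3 of 4 weeks and 0.56 when DMM replicate 1 of 12 weeks was left out too. It was 0.75 when each library was taken as its deviation from the mean of its limb and week.

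Ebf1 did not follow them. Its r with the mean of the other 8 was -0.24, and with each of them -0.74 to 0.05. On the deviations from the mean of limb and week it was -0.75. Ebf1 made up 14.8% to 26.5% of the summed CPM of the 9 genes in the DMM libraries of 4 weeks and 8.57% to 21.8% in control. At 12 weeks it made up 8.57% to 19.1% in DMM and 6.76% to 11.2% in control, and the limbs overlapped in both weeks.

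**Figure D3:**
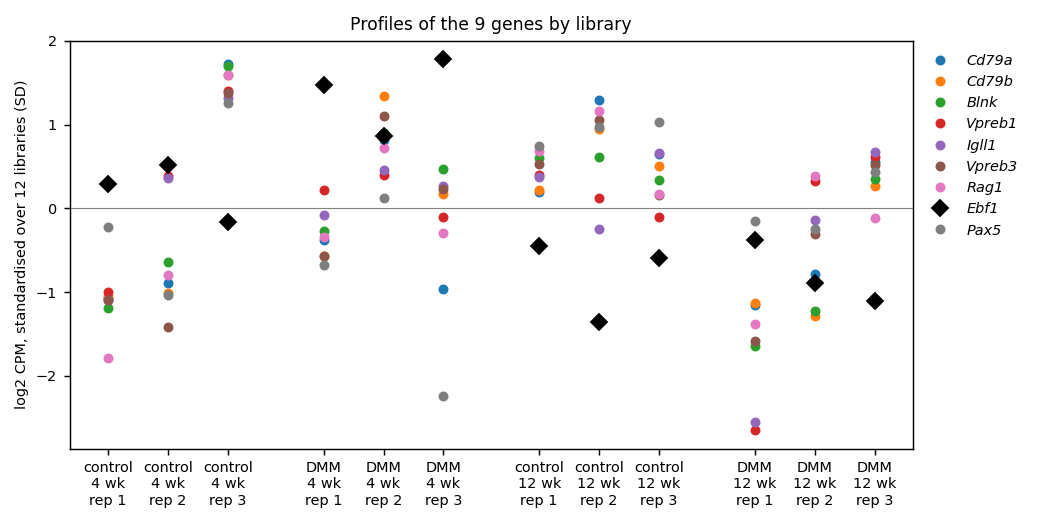
Log2 CPM of each of the 9 genes, standardised to mean 0 and SD 1 over the 12 libraries (vertical axis), by library (horizontal axis). Coloured points are the 8 other genes and black diamonds are Ebf1. In control replicate 3 of 4 weeks the 8 points lie together at the top while Ebf1 is near the mean.

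The 10 genes most like the mean of the 9, among 15581 genes, had r of 0.90 to 0.96 over the 12 libraries. They were Fcrla (0.96), a protein of B cells, Pdzk1 (0.95), Slamf6 (0.94), a receptor of lymphocytes, Sit1 (0.92), an adaptor of lymphocytes, Blk (0.91), a kinase of B cells, Rhoh (0.91), Upb1 (0.91), Nolc1 (0.91), Arid2 (0.90) and Tifa (0.90). The genes most like Ebf1, searched for after its pattern had been seen, were others: Mecom (0.97), Fgl2 (0.97) and Frmd4b (0.96) had r of -0.24, -0.32 and -0.18 with the mean of the other 8.

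The cell type lists also separated Ebf1 from the other 8. Against the mean of the 8, the median r was 0.78 for erythroid genes, 0.73 for B cell surface genes, 0.68 for early lymphoid regulators and 0.60 for neutrophil genes. Against Ebf1 the same lists had -0.28, -0.31, -0.39 and -0.54. The adipocyte genes had a median of 0.79 with Ebf1, with 7 of 7 above 0, and of -0.21 with the 8. The macrophage genes had 0.72 with Ebf1 and 0.33 with the 8, and the endothelial genes 0.52 and 0.11. The marrow stroma genes had 0.17 with Ebf1, with 4 of 8 above 0, and 0.37 with the 8. Over all genes the medians were 0.01 with Ebf1 and -0.04 with the 8. The summed level of the adipocyte genes was 309 to 511 CPM in the DMM libraries of 4 weeks, 253 to 402 CPM in control, and 131 to 254 CPM over both limbs at 12 weeks. Whether cells of these lists carried the Ebf1 RNA was not tested.

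**Figure D4:**
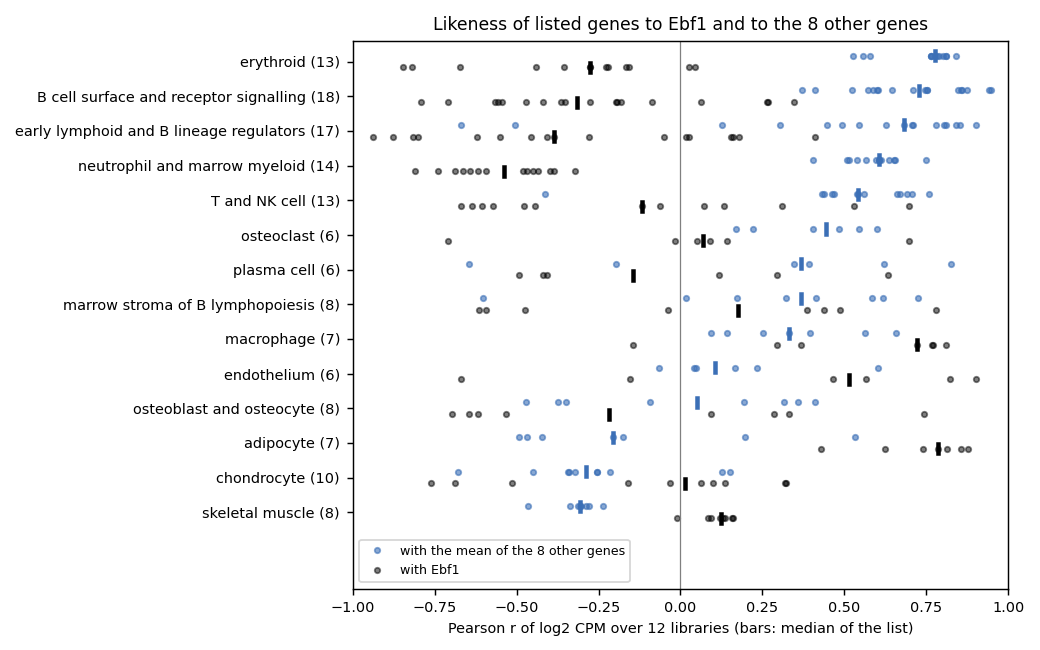
Pearson r of log2 CPM over 12 libraries (horizontal axis) between each gene of 14 lists (rows, with the number of genes) and the mean of the 8 other genes (blue) or Ebf1 (black). Points are genes and bars are medians: the erythroid list is at 0.78 in blue and -0.28 in black, and the adipocyte list at -0.21 in blue and 0.79 in black.

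The methylation libraries covered 1212709 cytosines with at least 10 reads in all 12 oxidised libraries. Of the promoters, taken as 1000 bases before to 500 after the start, those of Ebf1 (42 cytosines), Rag1 (3), Igll1 (2) and Vpreb1 (1) were covered, and those of Cd79a, Cd79b, Vpreb3, Pax5 and Blnk were not. The 5mC level over the 12 libraries was 0.80% at Ebf1, where the median of 14600 promoters was 0.607%. It was 27.2% at Rag1, 70.1% at Igll1 and 91.8% at Vpreb1, levels in the upper part of a distribution in which 86.6% of promoters were below 10%. The Rag1 cytosines lay 91, 128 and 327 bases after the start, and that of Vpreb1 lay 494 bases after it. Nothing before either start was covered, and the median promoter had 31 cytosines. The Rag1 and Vpreb1 levels thus do not show the methylation before their starts. These levels are averages over all cells of the tissue.

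At 4 weeks 0 of the 4 promoters had limbs that did not overlap, where 9.38% of all promoters did, and 9.58% of those with 1 to 3 cytosines. At 12 weeks 3 of the 4 did, against 15.7% of all promoters and 18.0% of the 1023 with 1 to 3 cytosines. Igll1 had 70.8%, 67.9% and 63.7% in control and 71.0%, 78.8% and 79.2% in DMM, a mean of 67.5% ± 3.57 against 76.3% ± 4.65 (SD, n = 3 each, two-sided exact permutation p = 0.1). The gap between the nearest libraries of Igll1 was small, and one of its measured cytosines is in the CG in capitals above. Vpreb1 had 87.7%, 93.5% and 87.0% in control and 95.3%, 95% and 94.4% in DMM, at 1 cytosine (exact permutation p = 0.1). Its lowest value rested on 46 reads (95% Wilson interval 74.3% to 93.9%) and its highest on 127 (90.1% to 97.8%), intervals that overlap. Rag1 went the other way, with 32.0%, 30.5% and 31.0% in control and 24.5%, 22.9% and 27.9% in DMM (exact permutation p = 0.1). With 3 libraries against 3, 0.1 is the smallest p the test can give. Ebf1 had means of 0.74% and 0.54% that overlapped. With at least 20 reads for each cytosine, 1 of the 4 promoters had limbs that did not overlap, against 14.6% of all promoters. It was Vpreb1, with its 1 cytosine. Igll1 then kept only the cytosine at -115 (control 69.1%, 52.4% and 61.5%, DMM 65.4%, 82.6% and 76.4%). Rag1 kept only that 327 bases after the start (control 34.9%, 44.4% and 44.9%, DMM 21.1%, 31.3% and 38.3%). Both overlapped. From 250 bases before to 50 after the start only Igll1 was covered, and its limbs did not overlap, as in 10.9% of such windows. That window held the same 2 cytosines as the Igll1 promoter, so it is not a separate measurement.

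Along the whole genes, 7 of the 9 had covered cytosines, from 1 in Igll1 to 357 in Pax5, with none in Cd79a and Vpreb3. Cytosines after the start of Ebf1, Rag1, Vpreb1 and Igll1 belong to both windows. At 4 weeks 0 of the 7 had limbs that did not overlap, against 8.86% of 17362 genes. At 12 weeks 6 of the 7 did not overlap, against 26.2% of genes. In DMM 4 were lower, as 22.0% of genes were: Rag1 with means of 67.9% in control and 62.99% in DMM, Blnk with 66.7% and 64.8%, Ebf1 with 35.96% and 34.2%, and Pax5 with 22.0% and 20.6%. Cd79b, with 22.3% and 30.8%, and Vpreb1, with 86.3% and 91.1%, were higher, as 4.21% of genes were. They rested on 3 and 5 cytosines. The nearest libraries of Cd79b hardly differed, at 24.51% in control and 24.54% in DMM, and its control libraries of 4 weeks ranged from 17.8% to 38.3%. Each of the 6 had an exact permutation p = 0.1 (n = 3 each).

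**Figure D5:**
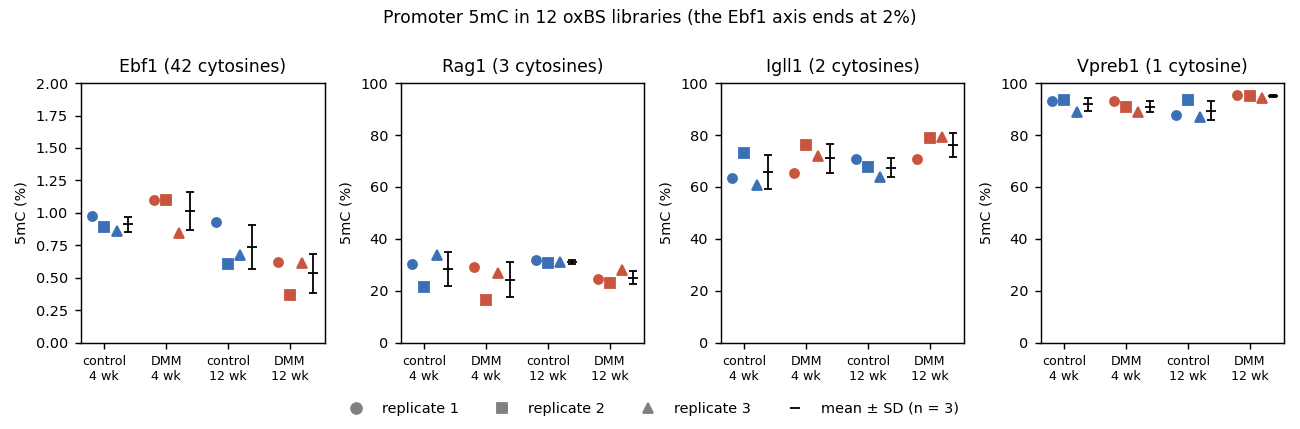
5mC level in percent (vertical axis) of the 4 covered promoters by limb and week. Points are libraries and bars are the mean and SD of 3 libraries. At 12 weeks the DMM points are above control at Igll1 and Vpreb1, below at Rag1, and overlap near 0.74% and 0.54% at Ebf1.

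5-Hydroxymethylcytosine, the difference between the unoxidised and oxidised libraries, was -0.43 to 0.18 percentage points at the promoter of Ebf1. It was -8.49 to 7.61 points at Rag1, -13.3 to 15.8 at Igll1 and -9.71 to 10.8 at Vpreb1. The negative values, which no cytosine can have, show the size of the error at promoters with 1 to 3 cytosines. The RNA and DNA came from different mice, so levels and methylation were not compared by library.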

How the data were processed

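RNA was measured in 12 libraries and DNA methylation in 12 oxidised and 12 unoxidised libraries, grouped by limb and week from their labels. For RNA, the authors used STAR for alignment and featureCounts for counting by RefSeq transcript, and deposited raw counts. The labels describe poly(A) libraries and the study's methods a low-input SMART-Seq protocol. For DNA, the deposited values are, for each cytosine, the coverage and the percent of reads with C and with T, with no cytosine under 10 reads. These minimums and the depth limit what scarce genes can show. Intervals cover counting error only.

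Tests used edgeR 4.0.16 (quasi-likelihood, robust, TMM, filterByExpr) in R 4.3.3, with DESeq2 1.42.0 as an alternative and Benjamini-Hochberg adjustment over all transcripts at 0.05. SE is the absolute log2 fold change over the square root of F. Log2 CPM used a prior count of 2. Likeness was Pearson's r, and 5mC means per gene were compared by two-sided exact permutation tests in Python 3.11.15. The edgeR step was tested on simulated data: at a log2 change of 1.5 it called 115 of 199 changed transcripts at 4 weeks (21140 tested) and 152 of 199 at 12 weeks (21010 tested), with 13 and 10 false calls.

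The members and all gene lists were chosen with earlier results of these data known. Named were the 9 genes, the genes of highest mean CPM or called in each list, and the 10 genes most like the 9. After their values were seen, Cnmd, Sdc1, Xbp1, Erg, Lef1, Foxo1, Hba-a1, Hba-a2 and the genes most like Ebf1 were also named. So were the genes that DESeq2 called at 12 weeks in the B cell, early regulator, blood, immune and chondrocyte lists. The osteoclast list serves in the plot of likeness and in the counts of 12 weeks.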

Additional observations from a re-analysis of the deposited data

How the results depend on the processing

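The direction of 7 of the 9 genes at 12 weeks (all but Ebf1 and Vpreb1) and the call of Ebf1 between weeks in DMM held in every alternative run. For Igll1 at 12 weeks only the sign held: with single libraries left out its log2 fold change ranged from -0.79 to -0.0036. Leaving out libraries gave 0 to 5 genes called between weeks in control, 0 to 2 promoters without overlap at 4 weeks (2 without control replicate 2, 1 without DMM replicate 3) and 3 to 4 at 12 weeks. Without a library, 16.9% to 27.1% of all promoters did not overlap at 4 weeks and from 24.2% upward at 12 weeks. At 12 weeks, 1 of 4 promoters did not overlap with at least 20 reads (14.6% of all) and 2 of 4 with means weighted by reads (15.1%). Over gene bodies it was 6 of 7 (26.2%). The short window (1 of 1, 10.9%) repeats the promoter value of Igll1, as it holds the same cytosines. No source says whether replicate numbers pair the pools, and same-number correlations over so few libraries (-0.55 to 0.36) cannot decide it. With replicates as a block, none of the 9 genes was called in the 3 limb comparisons, medians were 0.16, -0.54 and -0.68, and at 4 weeks Igll1 was 0.0036 and Rag1 0.31, both reversed. At 12 weeks Ebf1 was -0.0025 with DESeq2, -0.00019 with median-of-ratios factors, -0.059 with library totals and -0.0020 with all 12 libraries. The difference for Pax5 was -0.018 with library totals. Over all transcripts, calls at 4 and 12 weeks rose from 16 and 1 to 747 and 861 with DESeq2 and to 354 and 734 with the block. Among the lists, the block fit called all 8 skeletal muscle genes lower at 4 weeks. At 12 weeks it called 2 of 13 erythroid and 1 of 13 T and NK cell genes lower and 2 of 10 chondrocyte genes higher. Of the 17 early regulators it called 1 higher and 1 lower at 12 weeks. The cause of the rise in calls was not tested.

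Leaving out 1 library reversed 21 of 45 single-gene results at least for some library. Ranges of log2 fold change at 4 weeks were -0.13 to 0.51 for Blnk, -0.42 to 0.43 for Cd79a, -0.13 to 0.64 for Cd79b, -0.38 to 0.27 for Igll1, -0.59 to 1.12 for Rag1, -0.53 to 0.24 for Vpreb1 and -0.084 to 0.98 for Vpreb3. At 12 weeks they were -0.17 to 0.10 for Ebf1 and -0.59 to 0.21 for Vpreb1. For the difference they were -0.70 to 0.10 for Igll1, -0.44 to 0.44 for Pax5 and -0.49 to 0.43 for Vpreb1. Between weeks in control they were -0.13 to 0.57 for Blnk, -0.021 to 0.83 for Cd79a, -0.035 to 0.71 for Cd79b, -0.39 to 0.30 for Igll1, -0.10 to 1.65 for Rag1 and -0.60 to 0.22 for Vpreb1. In DMM they were -0.47 to 0.10 for Cd79a, -0.67 to 0.033 for Rag1 and -0.67 to 0.15 for Vpreb1. Of the 330 values from other alternatives, 323 kept direction and side of the threshold. The fits of correlation without libraries or on deviations were chosen after seeing the data.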
